A study of Mus musculus with 3 samples.

Results

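Gip, Cck, Ghrl, Sct, Sst, Nts, Tac1, Tph1, Chga and Chgb, 10 of the 32285 genes in the deposited count matrices, were followed in the mouse duodenum. They were chosen by symbol as the peptide hormones, the serotonin-making enzyme and the secretory-granule proteins of enteroendocrine cells. Earlier results of these data were known when they were chosen. The libraries were droplet single-cell RNA libraries of duodenal cells collected on day 30 after saline or preformed fibrils of recombinant mouse alpha-synuclein (PFF) were injected into the duodenal wall. All mice were C57B6/J, and the series title calls them male. Of the 2 saline libraries and 1 PFF library, the labels put saline 2 alone in batch 2 and the other two in batch 1. How many mice went into a library is not given in the sources used here, so p-values measure only the spread between these libraries, which may be technical.

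Cells were enriched as immune cells, part on CD45 and part on CD11b beads, so the epithelial cells that carry these hormones were by-products of the enrichment and their numbers do not measure the tissue. Each saline file joined 4 wells, and 3 of them, here called shared wells 1 to 3, held the same cells with identical counts in both files. These wells were counted once, and the well that each file had to itself stands for saline 1 and saline 2. A UMI (unique molecular identifier) counts 1 captured transcript. Barcodes with 500 UMIs and 200 genes or more, and with no more than 15% of UMIs from mitochondrial genes, are called kept cells. Saline 1 gave 5459 of them, saline 2 gave 4332, PFF 1 gave 12263 and the shared wells gave 993, 1734 and 8503, which makes 33284. Their median depth ran from 3241 UMIs in saline 1 to 10130 in saline 2, with 9111 in PFF 1. Batch 2 therefore held the deepest library, and saline 2 and its batch cannot be told apart.

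A further feature of the files touched the hormone counts. PFF 1 held 97 barcodes, 82 of them among kept cells, whose sequence was also that of a saline 2 cell with at least 20 times as many UMIs. Their UMIs were 1.03% of the saline 2 cell's at the median (0.836 to 3.61%). These are called low-copy barcodes. How they arose was not tested, and the main counts of hormone cells and the tests are also given without them.

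Enteroendocrine cells are scattered through the gut epithelium, sense nutrients at their apical side and release hormones from dense-core granules towards blood and nerve endings. In the duodenum, GIP (gastric inhibitory polypeptide) raises insulin secretion after a meal, cholecystokinin (Cck) contracts the gallbladder and drives pancreatic enzymes, secretin (Sct) drives bicarbonate, ghrelin (Ghrl) stimulates appetite, and somatostatin (Sst) restrains the other hormones. Neurotensin (Nts) and substance P (from Tac1) act on gut muscle and nerves, Tph1 is the rate-limiting enzyme of serotonin synthesis outside neurons, and chromogranins A and B (Chga, Chgb) are granule proteins found across these cells.

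The RefSeq promoter stretches of 8 members are shown because the members divide by cell in the results that follow, and the stretches let the start-proximal sequence of the co-detected and the mutually exclusive genes be compared. Each line gives the 100 bases before the annotated start on the gene's own strand, build GRCm38.p6, with TGACG (either strand, also inside the palindrome TGACGTCA, the core and the full cAMP response element) or TATAAA in capitals.
Chga, chr12:102554841-102554940, plus strand: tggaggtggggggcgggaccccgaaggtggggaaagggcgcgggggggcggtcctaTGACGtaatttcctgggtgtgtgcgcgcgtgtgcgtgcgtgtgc
Chgb, chr2:132781542-132781641, plus strand: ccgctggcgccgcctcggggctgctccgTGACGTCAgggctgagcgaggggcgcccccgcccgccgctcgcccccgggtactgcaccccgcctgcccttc
Tph1, chr7:46672538-46672637, minus strand: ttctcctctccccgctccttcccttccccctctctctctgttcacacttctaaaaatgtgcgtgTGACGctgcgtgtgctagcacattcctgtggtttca
Tac1, chr6:7554961-7555060, plus strand: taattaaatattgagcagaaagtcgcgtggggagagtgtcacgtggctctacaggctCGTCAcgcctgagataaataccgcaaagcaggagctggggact
Sst, chr16:23890845-23890944, minus strand: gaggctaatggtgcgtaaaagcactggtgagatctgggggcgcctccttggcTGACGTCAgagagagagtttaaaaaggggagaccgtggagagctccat
Cck, chr9:121495695-121495794, minus strand: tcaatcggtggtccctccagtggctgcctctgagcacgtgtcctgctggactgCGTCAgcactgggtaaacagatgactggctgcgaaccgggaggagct
Gip, chr11:96024445-96024544, plus strand: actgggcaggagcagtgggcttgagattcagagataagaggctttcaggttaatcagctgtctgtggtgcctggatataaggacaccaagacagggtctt
Sct, chr7:141279134-141279233, minus strand: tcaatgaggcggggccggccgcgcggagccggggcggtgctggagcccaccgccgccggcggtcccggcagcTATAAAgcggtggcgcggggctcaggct

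All 10 members matched the RefSeq table, with 14 windows of 300 bases (250 before and 50 after a start). TGACG, searched on both strands, lay in the 100 bases before a start of 6 members (Cck, Chga, Chgb, Sst, Tac1 and Tph1) and in 10.5% of the 32851 windows of all genes. The full TGACGTCA lay in the 300-base windows of Chgb and Sst and in 1.79% of all windows. In the 100 bases before a start, TATAAA was found in Sct alone among the members, and in 5.56% of all windows. CANNTG, the E-box read by factors such as Neurod1, lay in a 300-base window of all 10 members and in 72.3% of all windows. These matches describe the letters only: the counts come from transcript ends and measured nothing at the promoters.

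Cells with at least 5 UMIs of Chga and Chgb together were taken as the hormone cells. There were 48 of 33284 kept cells (0.144%): 2 in saline 1 (0.0366%, exact binomial 95% interval 0.00444 to 0.132%), 22 in saline 2 (0.508%, 0.319 to 0.768%), 11 in PFF 1 (0.0897%, 0.0448 to 0.160%), 3 in shared well 1 (0.302%), 10 in shared well 2 (0.577%) and 0 of 8503 in shared well 3 (interval up to 0.0434%). All intervals cover counting error only. The PFF share lay between the shares of the saline libraries. Of the 11 PFF cells, 4 were low-copy barcodes, and without these PFF 1 had 7 (0.0575%) and the series 44 (0.133%).

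The hormone cells carried the enteroendocrine markers that the rule did not use. All 15 such markers had a UMI in at least 10% of the 48 cells and 12 of them in at least 50%, against 35.3% and 15.2% of all 32285 genes. Neurod1, a transcription factor of the lineage, was detected in 43 cells, the granule protein Scg3 in 45, the prohormone convertase Pcsk1 in 44 and the epithelial adhesion molecule Epcam in 45. Of the markers of other cell types, all 3 plasma-cell, 6 of 9 myeloid, 5 of 8 mast-cell and 3 of 10 neuron and glia markers were at 0. So were 4 of 6 stroma and muscle, 1 of 3 B-cell and 1 of 5 Paneth markers, while all 3 T-cell and all 6 tuft markers had a UMI. The share of all genes at 0 in these cells was not computed, so these counts are a description only. All 7 goblet markers had a UMI, led by Tff3 (3409 UMIs in 40 cells), Agr2 (1296 in 21) and Fcgbp (352 in 25), while the mucin Muc2 had 2 UMIs. The receptor gene Ret was found in 26 cells (143 UMIs) and Kit in 17 (69). In saline 2, 6 of the 22 cells also passed an immune marker threshold, 3 of them that for T cells, with 12, 71 and 75 UMIs of Cd3d, Cd3e and Cd3g, and the deepest cell, at 144309 UMIs, held 1718 UMIs of tuft-cell markers. No doublet caller was run, and the part of mixed droplets in the co-detection was not tested. Just inside the threshold stood a single saline 2 cell with 5 granin UMIs, no hormone and 26 Cd3e UMIs. Just outside, at 4, stood 8 barcodes, among them 3 low-copy PFF barcodes with 116 Gip, 143 Gip and 41 Cck UMIs and a saline 2 barcode of 809 UMIs with 153 Sst.

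**Figure D1:**
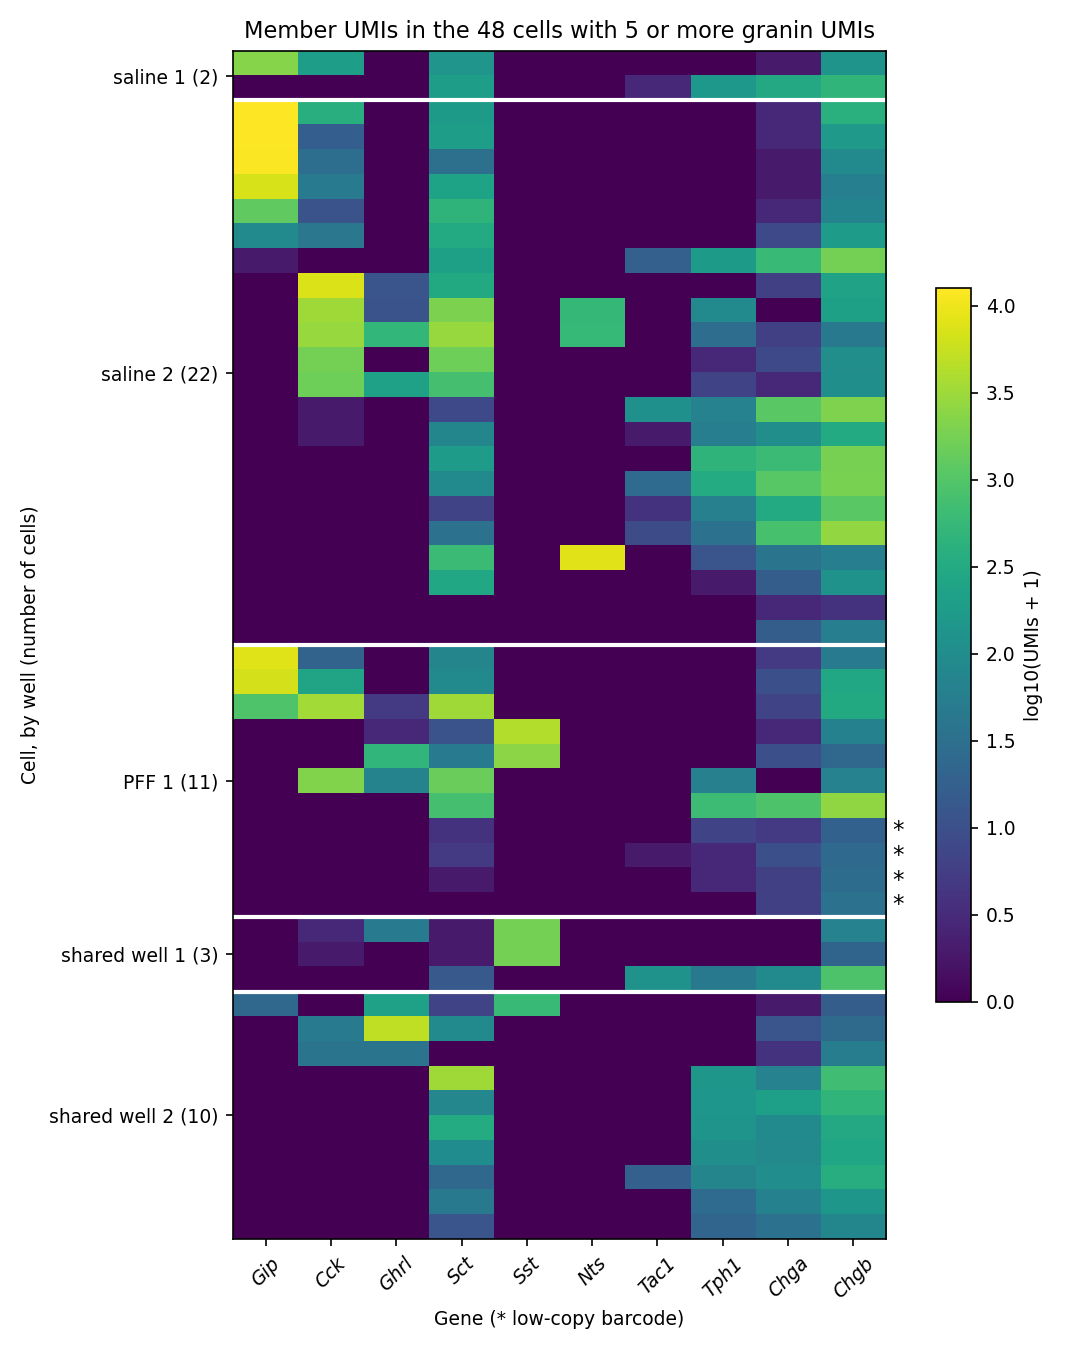
UMIs of the 10 members (columns) in each of the 48 hormone cells (rows, grouped by well), as log10(UMIs + 1), with low-copy barcodes starred. Gip is high in a set of cells without Tph1, the cells with Tph1 carry most of the Chga, and the 5 cells high in Sst lie in PFF 1 and shared wells 1 and 2.

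Most hormone cells carried more than 1 hormone, and a few combinations recurred. With at least 5 UMIs taken as carrying a hormone, 43 of the 48 cells carried at least 1 of the 8 hormone genes (Tph1 included) and 40 (83.3%, 69.8 to 92.5%) carried at least 2. At least 3 were carried by 25 cells (52.1%, 37.2 to 66.7%, and 56.8% without the low-copy barcodes), and 2 cells carried 5. These shares depend on depth. After thinning every cell to 2000 UMIs, 34 cells still had at least 5 granin UMIs. Of these, 70.6% carried at least 2 hormones, 26.5% carried at least 3 and 0 carried 5. The commonest sets were Sct with Tph1 in 11 cells, Gip with Cck and Sct in 10, and Sct with Tac1 and Tph1 in 6. Each of the other sets was seen in only 1 or 2 cells. Without the low-copy barcodes, 40 of 44 cells (90.9%) carried at least 2.

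Gip made up a large part of the transcripts in most of the cells that carried it. It reached 5 UMIs in 11 cells: 1 in saline 1 (2258 UMIs), 6 in saline 2 (88 to 12469, median 9592), 3 in PFF 1 (921, 6754 and 7859) and 1 in shared well 2 (23). The saline 1, saline 2 and PFF values overlapped, and the shared-well cell lay below them all. Gip was 0.209 to 30.0% of a cell's UMIs, with a median of 13.2%. Every one of the 11 cells also carried Sct and 10 carried Cck, while Tph1 was at 0 in all 11. A single other cell held UMIs of both genes, with 1 of Gip.

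Cck accompanied most cells with Gip or Ghrl, and Sct accompanied most cells of the other hormones. Cck was carried by 18 cells, at 10 to 7672 UMIs (median 223), and 17 of them also carried Sct. By well these were 11 cells of saline 2, 1 of saline 1, 4 of PFF 1 and 2 in shared well 2, and the values of saline 2 (10 to 7672) spanned those of PFF 1 (19 to 3451). Sct was the most widespread hormone, with at least 5 UMIs in 39 cells and any UMI in 44, at 6 to 3301 UMIs (median 168). It was present at this level in all 5 wells that held hormone cells: 136 and 188 UMIs in saline 1, 6 to 2894 in saline 2, 10 to 3223 in PFF 1, 13 in the cell of shared well 1 and 6 to 3301 in shared well 2.

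Ghrl, Sst and Nts each rested on few cells. Ghrl was carried by 10 cells at 10 to 5048 UMIs (median 145), with the highest in shared well 2 and the highest in PFF 1 at 492 and in saline 2 at 516. That single shared-well cell held 74.3% of all Ghrl UMIs in kept cells. Cck was carried with Ghrl in 7 cells. Sst was carried by 5 cells and by none of the hormone cells of saline 1 or saline 2: PFF 1 had 4183 and 2396 UMIs, shared well 1 had 1781 and 1718, and shared well 2 had 575. The shared wells are also saline, so Sst cells were not particular to PFF. Ghrl accompanied Sst in 3 of the 5 cells, and neither Cck nor Tph1 reached 5 UMIs in any of them. Nts was carried by 3 cells, all of saline 2, at 8311, 557 and 540 UMIs, each with Sct and Tph1 and 2 of them with Cck. With 0 of 48 cells for a pair, such as Gip with Tph1, the exact 95% interval reaches 7.40%.

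Tph1 marked the other large group. Gut epithelial cells that make serotonin are known as enterochromaffin cells. It was carried by 23 cells at 6 to 649 UMIs (median 64), never more than 0.874% of a cell's UMIs, so it was a small part of the transcripts beside the peptides. By well it was carried by 1 cell in saline 1 (153), 11 in saline 2 (6 to 465), 3 in PFF 1 (6, 59 and 649), 1 in shared well 1 (44) and 7 in shared well 2 (21 to 145). Sct accompanied it in 22 of the 23. In the hormone cells Tac1 was found beside it: the 6 cells with at least 5 Tac1 UMIs (8 to 121, in saline 2 and shared wells 1 and 2) all carried Tph1, and the 10 with any Tac1 UMI all had a Tph1 UMI. The PFF cell with 6 Tph1 UMIs was a low-copy barcode. Cck accompanied Tph1 in 4 cells.

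The granins did not run evenly over these groups. Because Chga and Chgb chose the cells, their levels are a description only. Chga was 0 to 1138 UMIs (median 89) in the 23 cells with Tph1 and 0 to 15 (median 4) in the 25 without, while Chgb was 18 to 2713 (median 361) and 3 to 394 (median 62). Without the low-copy barcodes, the 18 cells with Tph1 and under 500 Cck UMIs had 34 to 1138 Chga UMIs, and the 22 cells without Tph1 had at most 15. This gap depends on setting aside the low-copy barcodes and the cells high in Cck, and over all 48 cells the values overlapped. The 4 cells with Tph1 and at least 500 Cck UMIs had 0 to 5, like the cells without Tph1. Chga made up a median of 24.3% of the granin UMIs in the cells with Tph1 and 3.63% in the others. Without the low-copy barcodes these medians were 24.6% and 3.13%. Chga was at most 40.0% of the granin UMIs in any of the 48 cells. The 11 Gip cells had 1 to 9 Chga and 15 to 394 Chgb UMIs, the 7 cells with at least 500 Cck UMIs had 0 to 7 and 44 to 311, and the 5 Sst cells had 0 to 9 and 15 to 65.

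**Figure D2:**
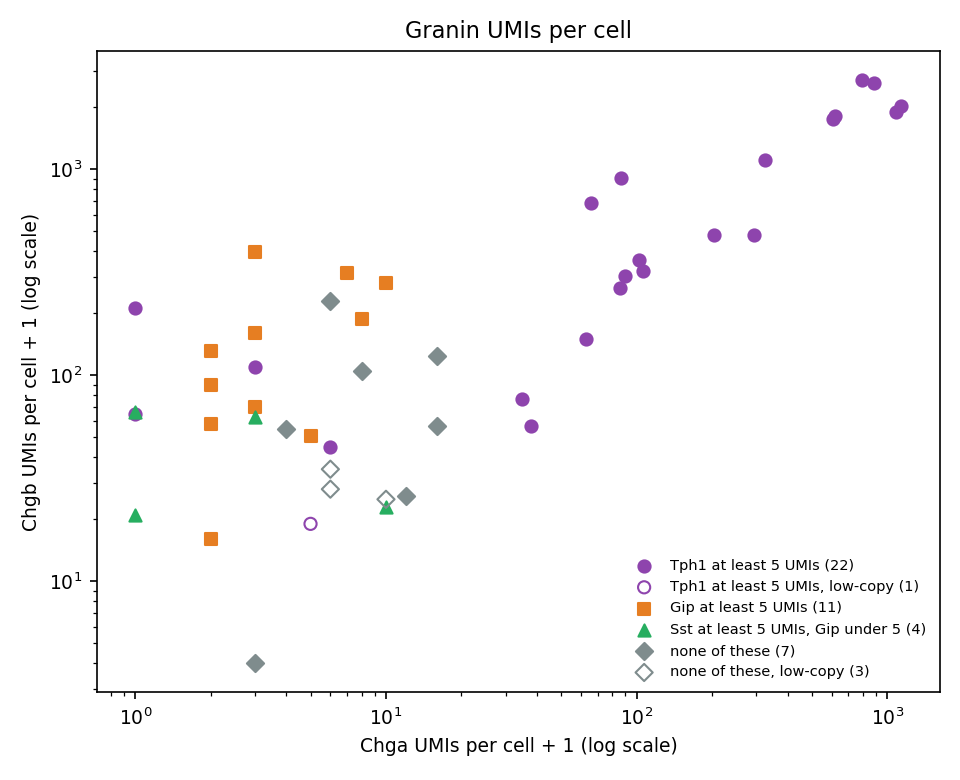
Chgb UMIs (vertical) against Chga UMIs (horizontal) in the 48 hormone cells, each with 1 added, on log axes, with cells marked by hormone and low-copy barcodes open. No cell without Tph1 exceeds 15 Chga UMIs, and the cells with Tph1 reach 1138.

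As a description over the 48 cells, which share libraries and depth, Pearson's r of the log-scaled values was 0.83 between Chga and Chgb, 0.80 between Tph1 and Chga, 0.70 between Tph1 and Chgb, -0.63 between Cck and Chga and -0.51 between Gip and Tph1. The genes most like each hormone in these cells, of 11396 with a UMI in at least 10% of them, were as follows. For Tph1 they were Lmx1a (r = 0.87), a transcription factor of serotonin-making cells, Krt19 (0.83) and Glis3 (0.82). For Gip they were Sphkap (0.95), the cannabinoid receptor Cnr1 (0.94) and Pdzrn3 (0.88). Cck was nearest to the granin-family gene Scg2 (0.87), Cyp2j6 (0.85) and the retinol carrier Rbp4 (0.76), and Sst to Iapp, which encodes amylin (0.98), the transcription factor Hhex (0.91) and Asic5 (0.90). Ghrl stood with Ceacam10 (0.76), Ina (0.70) and Kcnk16 (0.67), and Sct with Sis (0.74), Myl7 (0.71) and Slc8a1 (0.63). Nts, with Bid (0.73), Dqx1 (0.72) and Qpct (0.72), and Tac1, with Parp1 (0.85), Vcan (0.83) and Trpc7 (0.81), rested on 3 and 6 cells.

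Several of these partners, and some other genes, were divided between the cells with and without Tph1. Lmx1a, Sphkap, Iapp and Scg2 were picked by their correlation with a hormone in these same cells. Their division follows in part from that choice and is a description only. Glis3, picked in the same way for Tph1, was less divided, with 1661 UMIs in the 23 cells with Tph1 and 195 UMIs in 21 of the 25 others. Lmx1a was detected in 18 of the 23 cells with Tph1, which held 1410 of its 1416 UMIs, and reached 5 UMIs in none of the 25 others. Trpa1, an irritant-sensing ion channel, had 897 UMIs in 14 of the cells with Tph1 and 14 UMIs in 2 of the others. Without the low-copy barcodes Lmx1a and Trpa1 were at 0 in the 22 remaining cells without Tph1. The peptide gene Cartpt had 425 UMIs, all in 11 cells with Tph1. Neither Lmx1a, Trpa1 nor Cartpt had a UMI in the 4 cells that carried Tph1 with at least 500 Cck UMIs. On the other side, Sphkap was found in 11 of 11 Gip cells with 779 of its 793 UMIs and was at 0 in the cells with Tph1, and Iapp was found in 5 of 5 Sst cells with 395 of 396 UMIs. Pcsk2, a prohormone convertase, had 516 UMIs in the cells without Tph1 and 13 in those with it. Scg2 was present in all 7 cells with at least 500 Cck UMIs, at 113 to 500 UMIs (median 199).

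The wider machinery of hormone cells was detected around the members, though some of these genes lay mostly in other cells. Of 12 other gut hormone genes, 6 had a UMI in the 48 cells, led by Gast (gastrin, 10544 UMIs in 7 cells), Cartpt (425), Iapp (396) and Pyy (122 in 10 cells), and 6, among them Gal, Vip and Npy, were at 0. Of the Gast UMIs, 9704 came from a single saline 2 cell that carried none of the 8 hormones. For peptide processing, Cpe had 2531 UMIs, Pcsk1 1498, Pam 1465 and Pcsk2 529. Amine handling was carried by Ddc (1506 UMIs in 46 cells) and the vesicle transporter Slc18a1 (1071 in 41), with the neuronal enzyme Tph2 at 0. Of 16 enteroendocrine transcription factors 15 had a UMI, led by Lmx1a, Neurod1 (1365), Rfx6 (1008) and St18 (695), and Neurog3, which is transient in progenitors, was at 0. Of the nutrient sensors, 14 of 15 listed genes present had a UMI, with Trpa1, the glucose transporter Slc5a1 (365), the peptide transporter Slc15a1 (272) and the channel subunit Abcc8 (215) highest. Of 16 gut hormone receptors 6 had a UMI, led by Glp1r (201), Sstr1 (101), Sstr5 (48) and Sstr3 (12). Cckar, Cckbr, Ghsr and Sctr were at 0. Of the UMIs in all kept cells, the hormone cells held 0.430% for Glp1r, 1.32% for Slc5a1 and 2.76% for Ddc. The share was 4.79% for Slc15a1, 4.84% for St18 and 5.41% for Pam. For the other genes given with UMIs in these lists, the share was 69.8% (Slc18a1) or more. Relative to all UMIs, Glp1r was lower here than in T cells, and Slc5a1 and Slc15a1 lower than in other epithelial cells. Transcripts that rise on tissue dissociation were also present, with Jun at 299, Egr1 at 221 and Fos at 204 UMIs.

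Most member UMIs of the whole series lay in these 48 cells. The share was 99.8% for Nts, 99.3% for Chgb, 99.0% for Tac1, 98.8% for Cck, 98.6% for Gip, 98.4% for Chga and for Ghrl, 97.9% for Sst, 96.9% for Tph1 and 87.4% for Sct. For Chga and Chgb this follows in part from how the cells were chosen. Among the non-members with at least 50 UMIs, the 10 most confined genes included Gast (99.9%), Snap25 (99.4%), a release protein found in 44 of the 48 cells, Ucn3 (99.1%) and Cartpt (99.1%).

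Sct was the exception, because tuft and goblet cells held it as well. Outside the hormone cells it had 2934 UMIs in 998 cells, and 122 of these had at least 5: 41 of 66 tuft cells, 50 of 190 goblet cells, 28 of 20466 cells with markers of several classes, 2 myeloid cells, 1 of 1483 other epithelial cells and 0 of 7767 T cells. A Sct UMI was present in 81.8% of tuft cells (70.4 to 90.2%), 50.5% of goblet cells (43.2 to 57.8%), 12.5% of other epithelial cells (10.9 to 14.3%) and 0.502% of T cells (0.357 to 0.686%), which should lack it. Depth differed in the same order, with medians of 22157, 17713, 11552 and 3911 UMIs per cell. After thinning every cell to 2000 UMIs and leaving out shallower cells, the shares were 44.8% of 58 tuft cells, 19.0% of 147 goblet cells, 1.99% of 1257 epithelial cells and 0.269% of 7074 T cells, in the same order. As CPM (UMIs scaled to a total of 1000000 over all UMIs of the class), Sct stood at 338 (exact Poisson 311 to 367) in tuft and 152 (142 to 163) in goblet cells, against 10.5 in epithelial and 1.11 in T cells.

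In the Sct-bearing goblet and tuft cells other members were scarce. Cells with at least 5 granin UMIs had been placed among the hormone cells first, so goblet and tuft cells have fewer than 5 by construction. Below that level, of the goblet cells with at least 5 Sct UMIs 0 of 50 had a granin UMI and 47 had no UMI of another hormone, and of the tuft cells 1 of 41 had a granin UMI and 36 had no other hormone. In saline 2 the hormone cells held 45231 Gip and 10441 Sct UMIs, the T cells 28 Gip and 1 Sct, the tuft cells 6 Gip and 312 Sct and the goblet cells 11 Gip and 393 Sct. In saline 2, Gip thus exceeded Sct in the hormone and T cells, and Sct exceeded Gip in the tuft and goblet cells. The T cells of saline 1 and PFF 1 did not share this order. In saline 1 the hormone cells held 2258 Gip and 324 Sct UMIs and the T cells 14 and 15. In PFF 1 the hormone cells held 15534 and 5675, while the T cells held more Sct (12 UMIs) than Gip. The part of RNA free in the droplets in these counts was not tested. In PFF 1 tuft cells, Sct had 118 UMIs and every other member 0. By well, Sct stood at 422 CPM in tuft cells of saline 2, 217 in PFF 1, 330 in shared well 1 and 350 in shared well 2, and in goblet cells at 235, 87.4, 118 and 219. PFF 1 was lowest of the 4 in both classes, but saline 1 held 0 tuft cells and 1 goblet cell, so PFF 1 could not be set against its own batch, and no test was made. Of the 17 PFF tuft barcodes, 4 were low-copy, and without these the PFF tuft level was 216 CPM.

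**Figure D3:**
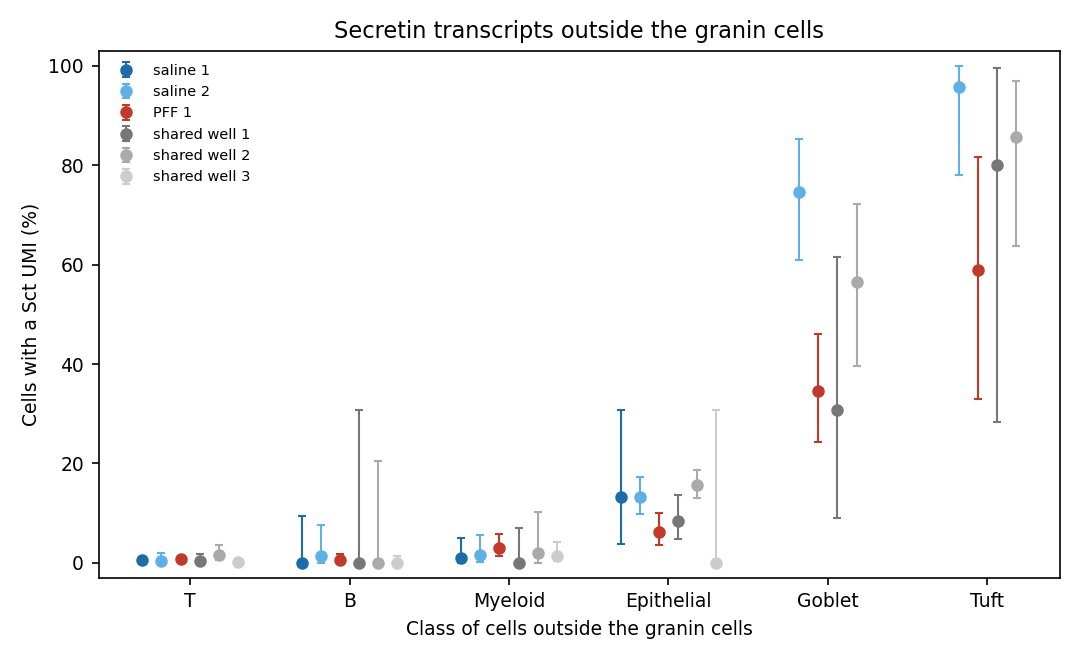
Percent of cells with a Sct UMI (vertical) outside the hormone cells in T, B, myeloid, other epithelial, goblet and tuft cells, by well, for wells with at least 5 cells of the class, with exact binomial 95% intervals. Tuft cells stand highest, from 58.8% in PFF 1 (69.2% without its low-copy barcodes) to 95.7% in saline 2, and T cells lie near 0.

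T cells give the background of hormone UMIs outside the cells that make them. Only cells that passed no other threshold were taken, 2861 in saline 1, 285 in saline 2 and 1525 in PFF 1. With the myeloid, plasma and mast thresholds ignored, there were 5049, 3194 and 10024, so many T cells were set aside. The T cells of saline 1 held 14 Gip UMIs, those of saline 2 held 28 and those of PFF 1 held 3 (1.60, 19.7 and 0.290 CPM), and a Gip UMI was present in 7.37% of 285 saline 2 T cells, 0.350% of those of saline 1 and 0.197% of 1525 of PFF 1. Saline 2 thus had the highest Gip CPM in T cells, and also the largest sum of Gip UMIs in hormone cells, of which it had the most. As CPM of the hormone cells, Gip was not highest there: it stood at 58550.5 in saline 1 and 42442 in saline 2. In edgeR's quasi-likelihood test of PFF 1 against the saline libraries, 0 of 13045 genes passed a Benjamini-Hochberg adjusted p of 0.05 in T cells (0%; 550 at an unadjusted p under 0.05, and 0 by DESeq2 with 169). The members with enough UMIs were Gip, with a log2 difference (PFF over saline) of -4.94 ± 1.80 (SE) and an adjusted p of 1.00, and Sct, with -0.24 ± 1.11. Here and below, the SE is approximate: edgeR's test gives none, and it was taken as the size of the log2 difference over the square root of the F statistic.

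The low-copy barcodes of PFF 1 held, at low counts, members that were high in the saline 2 cells with the same barcode. In 9 pairs with at least 3 member UMIs, the PFF barcode held 1.07 to 1.36% of the UMIs of the saline 2 cell with the same barcode. Gip had 143, 116 and 80 UMIs in 3 such barcodes and 12242, 12469 and 7215 in their saline 2 counterparts. One barcode held 41 Cck, 25 Sct and 5 Nts against 3328, 1985 and 540, and these 5 were all the Nts of PFF 1. In the 5 pairs led by Gip or Cck the same gene led in both barcodes.

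**Figure D4:**
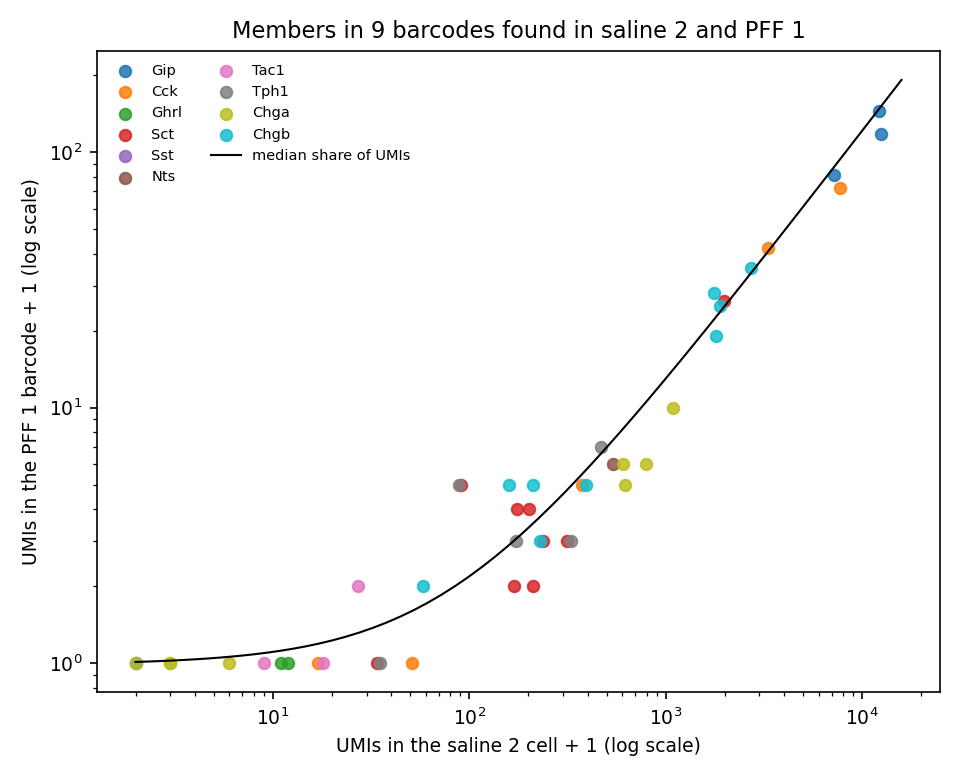
Member UMIs in 9 PFF 1 barcodes (vertical) against those in the saline 2 cell with the same barcode (horizontal), with 1 added to both, on log axes, with a point for each member and pair and a line at the pairs' median share of UMIs. The higher points lie along the line, as with Gip at 143 against 12242.

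Summed over all kept cells, the members stood mostly between or below the saline libraries in PFF 1. Given as CPM of all kept UMIs, with saline 1 first, then saline 2 and then PFF 1, Gip was at 113, 850 and 121, Cck at 10.2, 333 and 45.7, Sct at 19.6, 217 and 51.0, and Chgb at 30.4, 253 and 27.3. Tph1 was at 7.91, 24.8 and 5.77, Chga at 14.8, 89.9 and 7.33, and Ghrl at 0.05, 14.5 and 4.54. PFF 1 stood between the saline libraries for Gip, Cck, Sct and Ghrl and below both for Chgb, Tph1 and Chga. For Chgb, Tph1 and Chga the ratio between the saline libraries was larger than that between PFF 1 and the nearer of them. Sst stood above both, at 0.05 and 2.96 in the saline libraries and 50.2 in PFF 1, but 652 in shared well 1 and 37.7 in shared well 2, which are saline. Of Nts, saline 2 held 9423 UMIs, saline 1 held 0 and PFF 1 held 5. Of Tac1, saline 2 held 172 UMIs, saline 1 held 2 and PFF 1 held 1. Without the low-copy barcodes, PFF 1 was at 118 for Gip, 44.8 for Cck, 26.4 for Chgb and 0 for Nts and Tac1. In such sums fewer hormone cells and less hormone RNA per cell cannot be told apart.

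**Figure D5:**
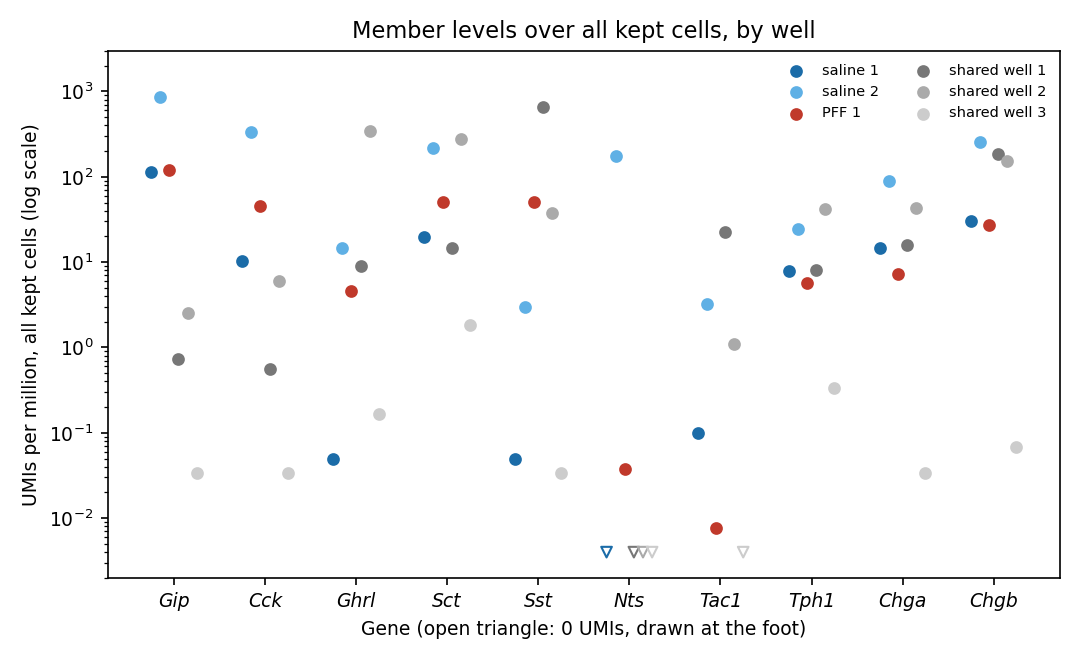
CPM over all kept cells (vertical, log axis) of the 10 members in each well, with open triangles at the foot for 0 UMIs. Sst in PFF 1, at 50.2, lies between shared wells 1 and 2 (652 and 37.7), and Ghrl in PFF 1, at 4.54, lies below both (9.09 and 343).

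With edgeR, 0 of 18835 genes were called between PFF 1 and the saline libraries over all kept cells (0%; 158 at an unadjusted p under 0.05), and DESeq2 called 12, none of them a member. Without the low-copy barcodes edgeR also called 0. The member log2 differences had a median of -1.96, with 9 of 10 below 0, beside -0.05 over all genes tested, of which 44.5% were above 0. Values were -1.999 ± 1.23 for Gip, -1.92 ± 1.84 for Cck, -1.22 ± 1.34 for Sct, -1.50 ± 0.82 for Tph1, -2.84 ± 1.17 for Chga and -2.38 ± 1.29 for Chgb. Sst was at 4.98 ± 1.51 and Tac1 at -7.49 ± 2.72, the 2 members with an unadjusted p under 0.05 (0.0213 and 0.0395 in edgeR), and the adjusted p was 1 for every member. With 1 residual degree of freedom the comparison rests on the difference between the saline libraries. Against saline 1 alone, of the same batch, the log2 value of Gip was 0.27 and that of Sct 1.55, and against saline 2 they were -2.80 and -2.08, so the direction turned with the library. On these values, scaled by edgeR's TMM normalization, PFF 1 lay between the saline libraries for 6 members, above both for Sst and below both for Tac1, Tph1 and Chga. Nts was among the 6 only through 5 PFF UMIs of 1 low-copy barcode, against 0 UMIs in saline 1.

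To test the members in cells not chosen by Chga and Chgb, cells were taken by the 15 non-member markers. This gave 25 cells from saline 2, 3 from saline 1 and 20 from PFF 1 (14 without low-copy barcodes). Of these, 21 in saline 2, 2 in saline 1 and 8 in PFF 1 also had at least 5 granin UMIs. The PFF pool thus held a smaller share of the hormone cells defined above, and the fit compares unlike mixtures of cells. In edgeR 34 of 9468 genes were called (0.359%; 22 higher and 12 lower in PFF 1), 2 of the 10 members among them, and DESeq2 called 0. The members' median log2 difference was -0.55, with 4 of 10 above 0, beside 0.02 over all genes tested, of which 50.9% were above 0. Sst rose in PFF 1, at 7.10 ± 1.33 with an adjusted p of 0.0142: saline 1 held 0 UMIs, saline 2 held 153 from 1 barcode, and PFF 1 held 6579 from 2 cells. The same call was lost when the shared wells were added as saline (0.94, adjusted p 1.00), where 2 cells of shared well 1 held 3499 Sst UMIs. Over 8 alternatives its adjusted p ran from 0.00853 to 1.00 and it was called in 2, one of them without the low-copy barcodes (0.0326).

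Tac1 was the other member called, lower in PFF 1 with an adjusted p of 0.0178 in edgeR. Saline 1 held 2 UMIs, saline 2 held 170 and PFF 1 held 0. Allowing 3 UMIs for the PFF library, its CPM was at least 33.5-fold lower than that of saline 2. The 2 UMIs of saline 1, the library of the same batch, are below the 3-UMI limit, so the call rests on saline 2, the only library of batch 2. The saline 2 UMIs came from 6 cells, and the highest held 115. Over 8 alternatives the adjusted p ran from 0.000212 to 1.00 and the gene was called in 4. The call was lost when the shared wells were added as saline (adjusted p 0.572) and with DESeq2 (1.00). The other members were not called. Gip was at -0.51 ± 2.17, Cck at 0.11, Sct at 0.44, Tph1 at -0.59, Chga at -1.53 and Chgb at -0.90. Nts was at -8.88 with an adjusted p of 0.0862. Depth limits these values: 3 saline 1 cells stand for 1 of the saline libraries, and a hormone carried by 3 to 6 cells in the whole series is present or absent in a library by a single cell or a few.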

How the data were processed

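The deposited matrices hold raw UMI counts as whole numbers per gene and barcode for 3 libraries. They were made with Cell Ranger 7.0.0, per the file headers, on mm10, per the submitters' processing notes. For cell calling, the joining of wells and the annotation release, details are not given in these sources. Members and gene lists were chosen with earlier results of these data known. Named genes were the members, up to 4 genes a list with the most UMIs, the genes most confined to the hormone cells, and the 3 most correlated with each hormone. Of 40606 barcodes, those with 500 UMIs, 200 genes and no more than 15% mitochondrial reads by UMI were kept, 33284 in all. Classes were thresholds on summed marker UMIs. No doublet caller was run, and cells passing an immune threshold were left out as an alternative. Counts were summed per library (20225036, 53744798 and 131888124 kept UMIs in saline 1, saline 2 and PFF 1) and tested with edgeR 4.0.16 (TMM normalization, filterByExpr, 2-sided quasi-likelihood test, Benjamini-Hochberg) in R 4.3.3, with DESeq2 1.42.0 as an alternative. Batch was no term, since none of the spread would have been left to estimate. The planned fit on cells chosen by Chga and Chgb was not run, because saline 1 had 2 such cells. The fit was tested on simulated data. Intervals are exact, at 95%, in Python 3.11.15. Promoter sequences are RefSeq's. Some genes of the lists are not reported here.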

Additional observations from a re-analysis of the deposited data

How the results depend on the processing

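No paired analysis was possible because saline and PFF share 1 replicate number. The low-copy barcodes and a T-cell threshold that ignored the myeloid, plasma and mast thresholds were alternatives chosen after seeing the data. The PFF 1 share of hormone cells, 0.0897% as reported, was 0.163% by non-member markers and 0.0342% after thinning to 2000 UMIs. The share of hormone cells with at least 2 hormones, 83.3%, was 93.8% at 1 UMI, 70.6% after thinning to 2000 UMIs and 65.1% by non-member markers. Over all kept cells DESeq2 called 12 genes and the saline files as deposited, which repeat the shared wells, 1369, against 0. In T cells the calls were 122 with no filter on low counts, 1045 as deposited, 1 without the mitochondrial limit and 2 with the wider T threshold, against 0. In cells chosen by non-member markers, 34 calls became 63 with RLE normalization, 120 with no filter, 0 with DESeq2, 0 when the shared wells were added as saline, 81 as deposited, 10 without the mitochondrial limit and 5 without cells passing an immune threshold. Directions turned with the shared wells and as deposited for Sct in T cells (0.052 and 0.27) and, in cells chosen by non-member markers, for Gip (0.056 and 0.43), Ghrl (-3.03 and -3.56) and Sct (-0.10 and -0.35). The cause was not tested. Leaving out a saline library left values with no test. The fit on Chga and Chgb cells and its alternatives were not run.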
